A study of Mus musculus with 12 samples.

Results

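ER-Golgi cargo receptors are membrane proteins that gather newly made proteins into the vesicles leaving the endoplasmic reticulum (ER). The 10 genes described here are 7 members of the p24 family (Tmed2, Tmed3, Tmed4, Tmed5, Tmed7, Tmed9 and Tmed10), the cargo receptors Surf4 and Lman1, and Mcfd2, the partner of Lman1. They were taken by gene symbol from a list, drawn up with earlier results of these data known, out of 23362 genes in the count tables, and all 10 were found and passed the filter on low counts in each comparison.

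The 12 libraries were made from polyadenylated RNA of C57BL/6 mouse cells, 3 in each of 4 groups. GATA2-GMP KO and GATA2-GMP WT were granulocyte-macrophage progenitors (GMP), of Xbp1-deficient and wild-type genotype, that were sorted, transduced with GATA2, sorted again and kept in culture for 48 hours. GMP KO and GMP WT were the same progenitors of both genotypes, put into Trizol straight from the sort with no culture. GATA2 is a regulator of transcription in eosinophils and mast cells, and XBP1 is the factor through which the ER stress sensor IRE1 switches on genes of the secretory pathway. GATA2-GMP RNA was amplified with the SMARTer Ultra Low Input kit ahead of TruSeq, and GMP RNA had TruSeq alone, so that transduction, culture, stage and kit cannot be told apart. Neither the allele of Xbp1 nor the age of the mice is stated in the labels. They also do not say whether libraries in a group stem from different mice, so p-values measure only the spread between these samples, which may be technical.

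The p24 proteins form complexes that shuttle between the ER and the Golgi apparatus, entering COPII-coated vesicles on the way out and COPI-coated vesicles on the way back, and they help to export proteins held by a glycosylphosphatidylinositol (GPI) anchor. Each complex is thought to combine members of the alpha (Tmed4, Tmed9), beta (Tmed2), gamma (Tmed3, Tmed5, Tmed7) and delta (Tmed10) subfamilies. Surf4 is the mammalian relative of yeast Erv29 and exports soluble secretory proteins. Lman1 is a mannose-binding lectin that, with the calcium-binding protein Mcfd2, carries coagulation factors V and VIII, and human mutations in either gene lower both factors in blood.

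XBP1 binds DNA elements with an ACGT core, so the RefSeq promoters of these genes were searched for the 6 bases CCACGT on both strands, whose reverse complement is ACGTGG. The table gives 300 bases a promoter, from 250 bases before to 50 bases after the start site, and held 7 of the 10 genes, without Tmed2, Tmed7 and Lman1. ACGT alone was found in 5 of these 7 promoters (71.4%), against 30.9% of all promoters in the table. CCACGT was found in 4 of these 7 promoters (57.1%), against 2729 of all 32851 promoters in the table (8.31%). The 4 promoters are shown because they hold this motif, which is in capitals in each. They were placed on build mm9 by an exact match and are written 5′ to 3′ along the gene.
Mcfd2, chr17:87665238-87665537, minus strand: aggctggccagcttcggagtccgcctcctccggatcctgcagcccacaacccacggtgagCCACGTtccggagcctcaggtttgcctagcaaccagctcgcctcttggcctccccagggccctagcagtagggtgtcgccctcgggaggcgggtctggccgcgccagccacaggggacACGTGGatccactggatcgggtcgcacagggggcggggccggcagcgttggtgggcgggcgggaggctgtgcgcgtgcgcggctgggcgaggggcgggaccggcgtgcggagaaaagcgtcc
Tmed10, chr12:86715618-86715917, minus strand: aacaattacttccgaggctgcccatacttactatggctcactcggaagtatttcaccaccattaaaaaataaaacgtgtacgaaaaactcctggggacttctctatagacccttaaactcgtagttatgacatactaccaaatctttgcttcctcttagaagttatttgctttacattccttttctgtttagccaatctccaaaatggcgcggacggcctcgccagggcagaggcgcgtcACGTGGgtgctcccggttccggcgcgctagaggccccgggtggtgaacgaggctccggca
Tmed3, chr9:89599832-89600131, minus strand: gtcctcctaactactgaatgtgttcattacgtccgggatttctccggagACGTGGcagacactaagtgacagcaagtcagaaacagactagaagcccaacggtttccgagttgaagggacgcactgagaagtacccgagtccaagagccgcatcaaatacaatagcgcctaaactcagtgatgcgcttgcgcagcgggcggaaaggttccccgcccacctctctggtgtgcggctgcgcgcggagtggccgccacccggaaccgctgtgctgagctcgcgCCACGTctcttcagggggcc
Tmed9, chr13:55694246-55694545, plus strand: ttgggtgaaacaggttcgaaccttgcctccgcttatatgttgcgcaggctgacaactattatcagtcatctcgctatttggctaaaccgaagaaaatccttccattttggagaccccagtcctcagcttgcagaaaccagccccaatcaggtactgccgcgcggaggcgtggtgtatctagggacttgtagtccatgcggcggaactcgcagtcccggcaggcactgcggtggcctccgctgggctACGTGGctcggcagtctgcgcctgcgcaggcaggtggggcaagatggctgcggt

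Relative to the start site, the motif began at -190 and -72 in Mcfd2, at -10 in Tmed10, at -201 and +31 in Tmed3 and at -4 in Tmed9. The promoters of Surf4, Tmed4 and Tmed5 held no CCACGT. Of longer elements, the ER stress response element (CCAAT, 9 bases of any kind, then CCACG) was in 0 of 7 promoters and 0.119% of all, and its second form (ATTGG, 1 base of any kind, then CCACG) in 0 of 7 and 0.0365%. The unfolded protein response element TGACGTGG, which includes ACGTGG, was in 0 of 7 and 0.676%. CCAAT alone was in 4 of 7 (Tmed4, Tmed5, Tmed9, Tmed10) and 37.4%. These are matches of letters in a short window and say nothing of binding.

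Total counts lay between 8219366, in GMP KO 3, and 33640911, in GMP KO 2. Xbp1 itself had 99.9, 122 and 128 CPM (counts relative to library size) in GATA2-GMP KO 1 to 3, against 381, 269 and 197 CPM in GATA2-GMP WT. It had 89.8, 55.9 and 56.8 CPM in GMP KO 1 to 3, against 131, 133 and 153 CPM in GMP WT. Each KO library was below each WT library of its stage, although log2 fold changes of -1.28 (adjusted p = 0.0959, SE 0.27) in GATA2-GMP and -1.06 (adjusted p = 0.0919, SE 0.21) in GMP did not pass the threshold, and reads from exons outside a deleted part would still be counted. GATA2-GMP WT 3 stood apart: leaving it out took the genes called between the GATA2-GMP genotypes to 525, against 44 with it. Markers of 9 genes for GMP summed to 2266 to 2646 CPM in GATA2-GMP KO, 3100 to 3741 CPM in GATA2-GMP WT, 22404 to 26434 CPM in GMP KO and 26014 to 28529 CPM in GMP WT. Markers of 11 genes for eosinophils summed to 56246 to 68305 CPM in GATA2-GMP KO, 136046 to 207329 CPM in GATA2-GMP WT, 349 to 671 CPM in GMP KO and 119 to 298 CPM in GMP WT. Markers of 10 genes for lymphoid and plasma cells summed to 339.7 to 499 CPM in GATA2-GMP KO, 376 to 625 CPM in GATA2-GMP WT, 279 to 423 CPM in GMP KO and 263 to 349.5 CPM in GMP WT. Most of this was Nkg7, a granule gene of cytotoxic lymphocytes, which averaged 414 CPM in GATA2-GMP KO, 518.5 CPM in GATA2-GMP WT, 335 CPM in GMP KO and 299 CPM in GMP WT. Pax5 had no read in any group. Markers of 7 genes for erythroid cells and megakaryocytes summed to 30.04 to 40.9 CPM in GATA2-GMP KO, 39.9 to 59.8 CPM in GATA2-GMP WT, 17.2 to 17.9 CPM in GMP KO and 19.3 to 38.7 CPM in GMP WT, with Itga2b the highest of them and Hba-a1 at no read.

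Taken as a group, the 10 genes summed to 2357 ± 138 CPM in GATA2-GMP KO and 3758 ± 276 CPM in GATA2-GMP WT, and to 1281 ± 75.0 CPM in GMP KO and 1748 ± 62.3 CPM in GMP WT (SD, n = 3 each). Within each stage the sum of every KO library lay below that of every WT library.

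**Figure D1:**
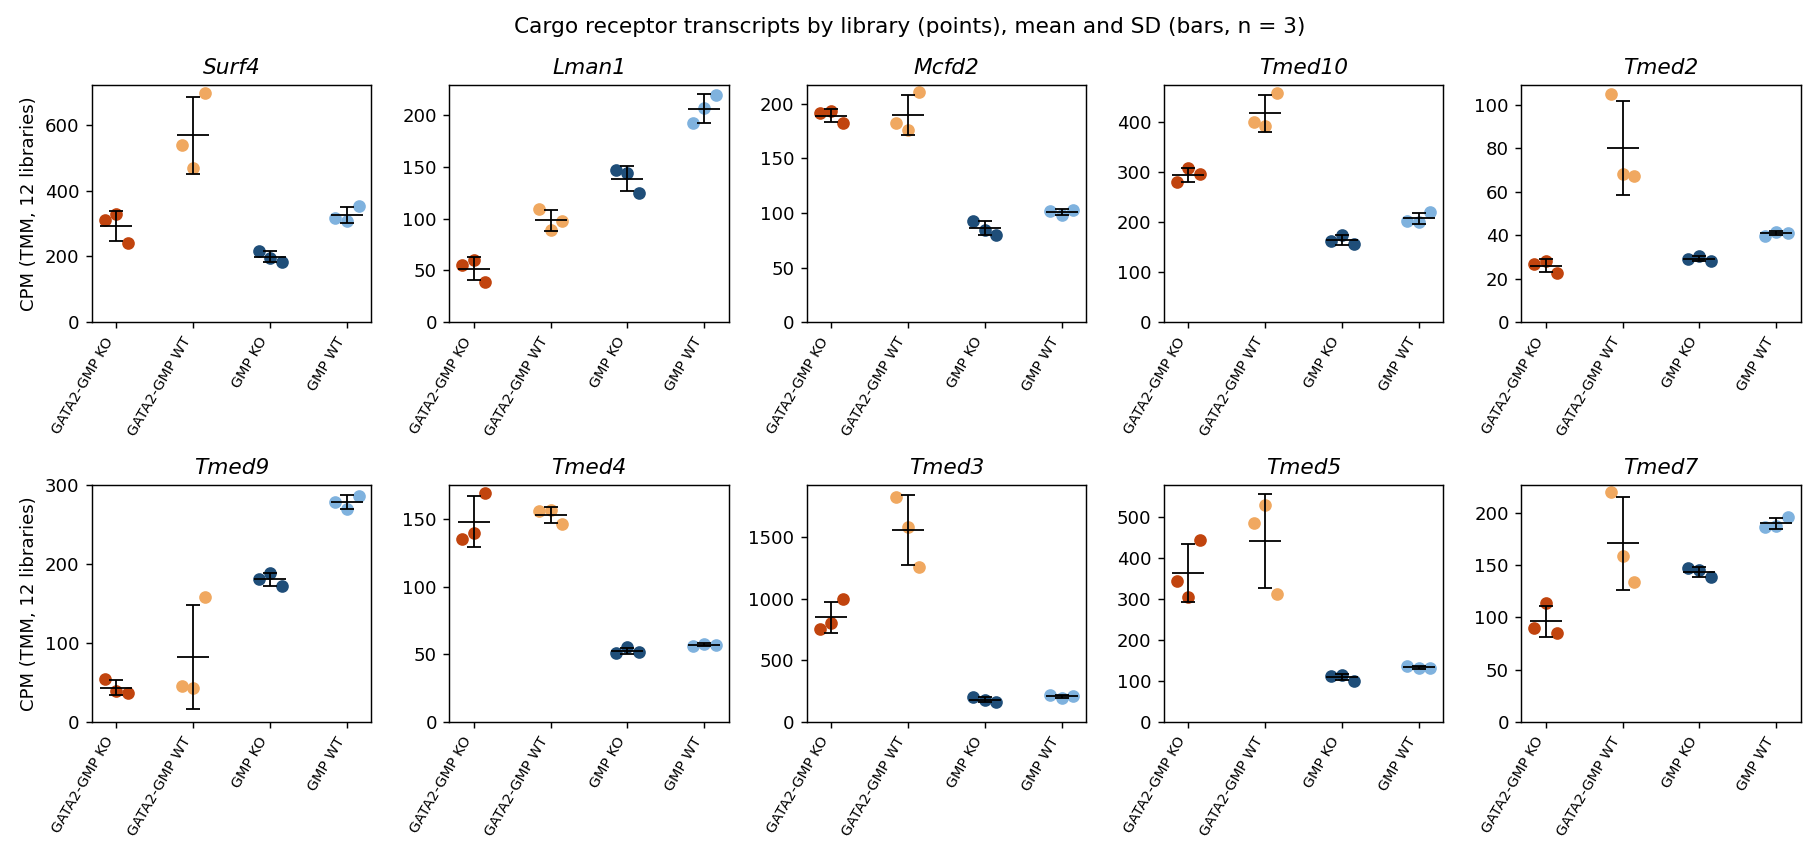
Level of each of the 10 genes in CPM (linear axis from 0) in each library of the 4 groups, with points for libraries and bars for the mean and SD of 3 libraries. Surf4, Lman1, Tmed10, Tmed2 and Tmed7 lie lower in every KO library than in every WT library of the same stage, and Tmed9 reaches 159 CPM in GATA2-GMP WT 3, against 42.4 and 45.3 CPM in the other GATA2-GMP WT libraries.

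The first comparison asked which of these transcripts differed with Xbp1 in freshly sorted GMP. In GMP KO, 7 of the 10 genes fell and none rose, at an adjusted p under 0.05 (edgeR quasi-likelihood test, Benjamini-Hochberg over 12002 genes). Of all genes tested, 2.52% fell and 0.658% rose. The median log2 fold change of the 10 genes, KO over WT, was -0.38, against 0.0058 over all genes. The changes were moderate, from -0.73 for Surf4 to -0.31 for Tmed5 among the genes that fell. In 9 of the 10 genes each KO library was below each WT library, as in 8.09% of all genes.

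Surf4 (chromosome 2, 26775560 to 26789448, minus strand of mm9) had 217, 196 and 184 CPM in GMP KO 1 to 3, against 318, 308 and 353 CPM in GMP WT. The groups did not overlap, and Surf4 fell by 0.73 on the log2 scale (adjusted p = 9.67e-05, SE 0.070), the largest fall of the 10. Lman1 (chromosome 18, 66140408 to 66182234, minus strand) had 147, 144 and 125 CPM in GMP KO, against 192, 207 and 219.6 CPM in GMP WT. It fell by 0.59 (adjusted p = 0.000264, SE 0.067), again with no overlap. Its partner Mcfd2 (chromosome 17, 87653998 to 87665275, minus strand) had 92.8, 84.8 and 80.2 CPM in GMP KO, against 102, 97.8 and 103 CPM in GMP WT. These libraries did not overlap either, but the log2 fold change of -0.24 (adjusted p = 0.0524, SE 0.061) did not pass. Mcfd2 did pass with the replicate number as a block (adjusted p = 0.00658), with no filter on low counts (0.0313), in DESeq2 (0.0234) and without GMP KO 1 (0.0119).

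Among the p24 genes, the alpha member Tmed9 (chromosome 13, 55694313 to 55699027, plus strand) had 181, 188 and 173 CPM in GMP KO, against 279, 269.5 and 287 CPM in GMP WT. Tmed9 fell by 0.64 on the log2 scale (adjusted p = 2.51e-05, SE 0.052), the most of the 7. The other alpha member, Tmed4 (chromosome 11, 6170372 to 6174873, minus strand), had 50.9, 55.3 and 51.7 CPM in GMP KO, against 56.1, 58.0 and 57.2 CPM in GMP WT. Its libraries did not overlap, yet its log2 fold change was -0.13 (adjusted p = 0.335, SE 0.059).

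The delta member Tmed10 (chromosome 12, 86681564 to 86715667, minus strand) had 162, 175 and 156 CPM in GMP KO, against 202, 199.5 and 219 CPM in GMP WT, and fell by 0.35 (adjusted p = 0.00452, SE 0.058). The beta member Tmed2 (chromosome 5, 124990704 to 125000515, plus strand) had 28.9, 30.4 and 28.3 CPM in GMP KO, against 39.8, 41.6 and 40.8 CPM in GMP WT. Tmed2 fell by 0.49 (adjusted p = 0.000642, SE 0.064). The groups did not overlap for either gene. A transcript of Tmed2 has near-identical copies (at least 95% identity) elsewhere in mm9 over 92.8% of its length, and one of Tmed10 over 37.5%. Counts of both are therefore uncertain, and their levels are not comparable with those of other genes.

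Of the 3 gamma members, Tmed7 (chromosome 18, 46719889 to 46757189, minus strand) had 147, 145 and 138 CPM in GMP KO, against 186, 187 and 196 CPM in GMP WT, and fell by 0.42 (adjusted p = 0.000478, SE 0.052). Tmed5 (chromosome 5, 108535385 to 108561639, minus strand) had 112, 113 and 99.98 CPM in GMP KO, against 137, 131 and 131 CPM in GMP WT. It fell by 0.31 (adjusted p = 0.00634, SE 0.054), but did not pass without GMP KO 3 (adjusted p = 0.0554). Both were separated between the groups. Tmed3 (chromosome 9, 89594041 to 89599881, minus strand) had 199, 178 and 161 CPM in GMP KO, against 220.03, 196 and 210.1 CPM in GMP WT. It was the only one of the 10 whose groups overlapped, and had a log2 fold change of -0.23 (adjusted p = 0.113, SE 0.069).

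The replicate numbers pair the GMP libraries in their deviations, and with the number as a block 9 of the 10 genes were called lower, Tmed3 (adjusted p = 0.00768) and Mcfd2 added, among 964 genes called in all, against 381 without it. Leaving out GMP KO 1 also gave 9 (Tmed3 at adjusted p = 0.0131). The count was 6 without GMP KO 3, the library with the fewest reads, when 209 genes were called in all. Reads of Surf4 and Surf2, Tmed5 and Mtf2, and Tmed7 and Ticam2 share 144, 395 and 838 exon bases, and the strand setting of the counts is not given in the sources used here. Of the markers tested between these groups, 1 of 9 for GMP fell and 1 of 4 for mast cells and basophils rose (median log2 fold change 0.33). Of all genes, 2.52% fell and 0.658% rose. None of 9 markers for eosinophils, 5 for later neutrophil granules or 4 for monocytes and macrophages was called. The later neutrophil granule genes had a median log2 fold change of 2.51, with sums of 11.9 to 55.6 CPM in GMP KO and 6.55 to 13.7 CPM in GMP WT. The part of these markers in the result was not tested.

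The second comparison asked the same of GATA2-GMP. Tmed2 was the only one of the 10 genes called in GATA2-GMP KO, where it fell, and the other 9 did not pass an adjusted p of 0.05 (edgeR, 11699 genes). Of all genes 0.274% fell. At an unadjusted p under 0.05, 6 of the 10 were lower and 0 higher, where 8.31% and 6.59% of all genes were. The median log2 fold change of the 10 was -0.85, against -0.0049 over all genes, and 6 of 10 had every KO library below every WT library, as did 12.3% of all genes.

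Tmed2 had 26.9, 28.3 and 22.7 CPM in GATA2-GMP KO 1 to 3, against 105, 68.1 and 67.2 CPM in GATA2-GMP WT. The groups were far apart, and Tmed2 fell by 1.62 on the log2 scale (adjusted p = 0.0428, SE 0.25). This call rested on most of the libraries, and the gene's copies make the counts uncertain. It was lost without GATA2-GMP WT 1 (adjusted p = 0.156) or WT 2 (0.0665), and without GATA2-GMP KO 1 (0.258), KO 2 (0.0974) or KO 3 (0.129). Over all alternatives its adjusted p ran from 4.92e-06 to 0.259, and its log2 fold change from -1.74 to -1.38.

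Surf4 had 311, 328 and 242 CPM in GATA2-GMP KO, against 540.4, 468 and 697 CPM in GATA2-GMP WT. Every KO library was lower, and Surf4 had a log2 fold change of -0.95 (adjusted p = 0.131, SE 0.25). Lman1 had 54.8, 60.4 and 38.9 CPM in GATA2-GMP KO, against 109, 88.5 and 97.2 CPM in GATA2-GMP WT. Its log2 fold change was -0.93 (adjusted p = 0.129, SE 0.23), with no overlap. Mcfd2 had 192, 194 and 182 CPM in GATA2-GMP KO, against 182, 176 and 211 CPM in GATA2-GMP WT. The groups overlapped, and Mcfd2 had a log2 fold change of 0.0012 (adjusted p = 0.998, SE 0.20) whose sign turned under 5 of 11 alternatives, within -0.054 to 0.080.

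Tmed3 had 755.8, 803 and 994 CPM in GATA2-GMP KO, against 1828, 1585 and 1259 CPM in GATA2-GMP WT, at a log2 fold change of -0.87 (adjusted p = 0.173, SE 0.26). Tmed7 had 90.01, 113 and 84.9 CPM in GATA2-GMP KO, against 219.7, 158 and 134 CPM in GATA2-GMP WT, at a log2 fold change of -0.83 (adjusted p = 0.177, SE 0.25). Tmed10 had 280.02, 307 and 296 CPM in GATA2-GMP KO, against 399, 392 and 458 CPM in GATA2-GMP WT, at a log2 fold change of -0.50 (adjusted p = 0.301, SE 0.20). In all 3 of these genes the KO libraries lay below the WT libraries without overlap.

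The other 3 p24 genes overlapped between the genotypes. Tmed4 had 135, 139.8 and 169.7 CPM in GATA2-GMP KO, against 156, 157 and 146 CPM in GATA2-GMP WT, and a log2 fold change of -0.045 (adjusted p = 0.938, SE 0.20). Tmed5 had 343, 304 and 443 CPM in GATA2-GMP KO, against 484, 528 and 312 CPM in GATA2-GMP WT, at -0.28 (adjusted p = 0.688, SE 0.27). Tmed9 had 54.7, 39.04 and 36.6 CPM in GATA2-GMP KO, against 45.3, 42.4 and 159 CPM in GATA2-GMP WT. Its log2 fold change of -0.91 (adjusted p = 0.418, SE 0.48) rested on GATA2-GMP WT 3, and was -0.016 without that library.

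Without GATA2-GMP WT 3, 3 of the 10 were called lower (Tmed2, Tmed3 at adjusted p = 0.0448 and Tmed7 at 0.0436), among 525 genes called in all. DESeq2 called 4 (Tmed2, Tmed3 at adjusted p = 0.0258, Surf4 at 0.0157 and Lman1 at 0.0222), among 504 genes. With all libraries edgeR called 44 genes. Eosinophil markers moved with genotype in the same libraries: 2 of 11 fell, where 0.274% of all genes did, none rose, and their median log2 fold change was -1.91. None of 5 monocyte and macrophage markers tested was called, at a median log2 fold change of 0.26. The later neutrophil granule genes summed to 26158 to 38320 CPM in GATA2-GMP KO and 28296 to 57572 CPM in GATA2-GMP WT. Ngp held most of this sum, averaging 24880 CPM in GATA2-GMP KO and 37830 CPM in GATA2-GMP WT. The other genes of the list averaged higher in GATA2-GMP KO. Over the 6 genes tested the median log2 fold change was 0.56, and none was called. Mast cell and basophil markers summed to 6918 to 12460 CPM in GATA2-GMP KO and 3736 to 12428 CPM in GATA2-GMP WT. Their median log2 fold change was 0.69, with none of 6 called. The part of all these markers in the levels of the 10 genes was not tested. In bulk RNA fewer cells of a type and less RNA per cell cannot be told apart.

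**Figure D2:**
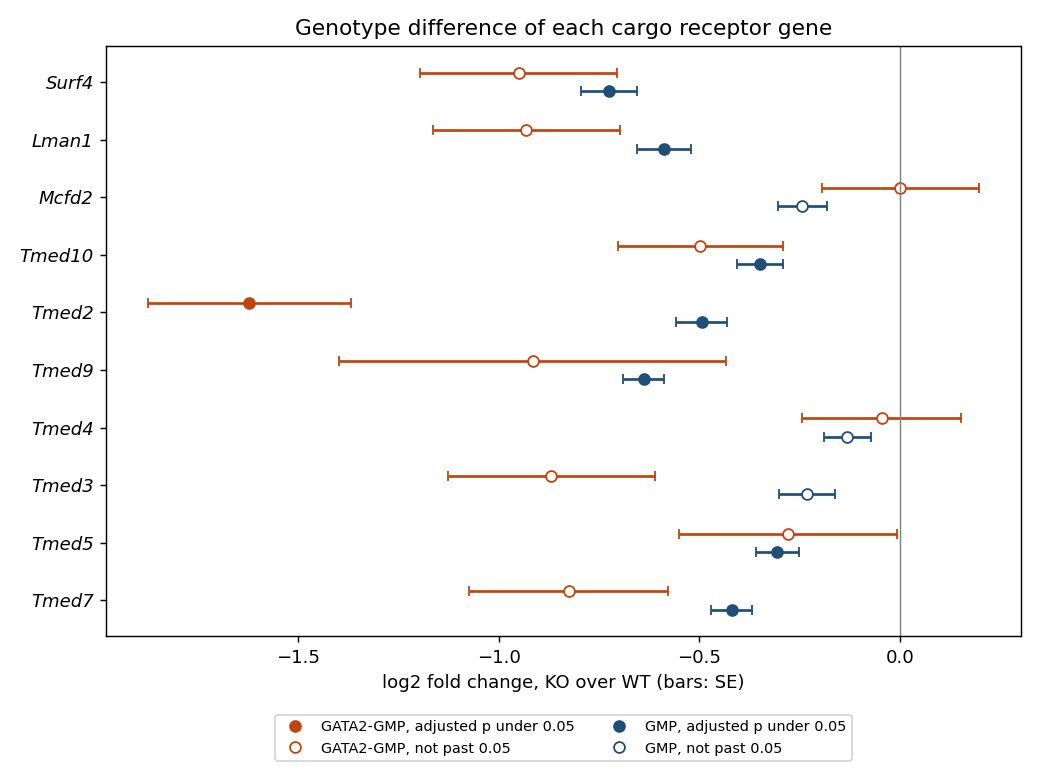
Log2 fold change of KO over WT for each gene (x axis), with the SE as bars, in GATA2-GMP (orange) and in GMP (blue); filled points passed an adjusted p of 0.05 and open points did not. In GMP 7 points are filled, and in GATA2-GMP the SE are wider and only Tmed2, at -1.62, is filled.

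Whether the genotype difference itself differed between the stages was tested as an interaction over all 12 libraries. The fit took the same spread of a gene for both stages, although the SE were wider in GATA2-GMP than in GMP. For Tmed4 the interaction had an SE of 0.18, below the 0.20 of the GATA2-GMP difference alone. The p-values of the interaction may therefore be too small. None of the 10 genes passed in edgeR, against 0.0859% of 12803 genes. At an unadjusted p under 0.05, 2 were lower and 0 higher, where 8.95% and 5.96% of all genes were. DESeq2 called 1 of the 10, Tmed2 (adjusted p = 0.00108), among 738 genes. The 2 were Tmed2, whose log2 fold change was lower by 1.14 in GATA2-GMP (interaction -1.14, SE 0.25, adjusted p = 0.0770), and Tmed3 (-0.65, SE 0.24, adjusted p = 0.228). Without GATA2-GMP WT 3 both passed (Tmed2 at adjusted p = 0.00992 and Tmed3 at 0.0363), among 1179 genes called in all, against 11 with that library. Tmed2 also passed without GATA2-GMP WT 2 (adjusted p = 0.0474). The other 8 genes lay between -0.42 for Tmed7 and 0.23 for Mcfd2, and the median of all 10 was -0.27.

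The stages were compared within each genotype. In the WT cells, 7 of the 10 genes rose in GATA2-GMP (34.1% of 12251 genes did) and 2 fell (36.4% of genes did). In the KO cells, 6 rose (38.6% of 12438 genes) and 3 fell (40.0% of genes). The median log2 fold change of the 10, GATA2-GMP over GMP, was 0.95 in WT and 0.71 in KO, against -0.092 and -0.055 over all genes. With upper quartile scaling the median of all genes shifted by -0.19 in WT and -0.15 in KO, without changing the direction of any of the 10 or moving one across the threshold. The sums of the GMP, eosinophil and later neutrophil granule markers also differed between the stages, and their part in these changes was not tested.

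Tmed3 rose most, averaging 1557 ± 286 CPM in GATA2-GMP WT and 209 ± 12.2 CPM in GMP WT (SD, n = 3 each), at a log2 fold change of 2.91 (adjusted p = 1.32e-05, SE 0.21). In KO cells it averaged 851 ± 126 CPM in GATA2-GMP KO and 179 ± 19.03 CPM in GMP KO, at a log2 fold change of 2.26 (adjusted p = 3.55e-06, SE 0.17). Of the other gamma members, Tmed5 rose by 1.74 (adjusted p = 0.000227, SE 0.22) in WT and 1.75 (adjusted p = 1.74e-05, SE 0.17) in KO. Tmed7 fell by 0.57 (adjusted p = 0.00553, SE 0.14) in KO, and in WT its log2 fold change was -0.15 (adjusted p = 0.535, SE 0.20), or 0.089 without GATA2-GMP WT 3.

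The alpha members moved in opposite directions. Tmed4 averaged 153 ± 5.99 CPM in GATA2-GMP WT and 57.1 ± 0.938 CPM in GMP WT (SD, n = 3 each) and rose by 1.43 on the log2 scale (adjusted p = 4.92e-05, SE 0.14). In KO it rose by 1.501 (adjusted p = 1.11e-05, SE 0.14). Tmed9 averaged 82.1 ± 66.3 CPM in GATA2-GMP WT and 279 ± 8.70 CPM in GMP WT (SD, n = 3 each), and fell by 1.75 (adjusted p = 0.0129, SE 0.49) in WT, or 2.57 without GATA2-GMP WT 3. In KO it fell by 2.05 (adjusted p = 8.03e-06, SE 0.18).

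The partners Lman1 and Mcfd2 also parted. Lman1 averaged 98.2 ± 10.2 CPM in GATA2-GMP WT and 206 ± 13.8 CPM in GMP WT (SD, n = 3 each), falling by 1.06 (adjusted p = 0.000409, SE 0.15). Mcfd2 averaged 189.6 ± 18.6 CPM in GATA2-GMP WT and 101 ± 2.68 CPM in GMP WT, rising by 0.92 (adjusted p = 0.000709, SE 0.15). In KO, Lman1 fell by 1.42 (adjusted p = 8.47e-05, SE 0.18) and Mcfd2 rose by 1.15 (adjusted p = 3.07e-05, SE 0.13). Tmed10 rose by 1.02 (adjusted p = 0.000498, SE 0.15) in WT and 0.85 (adjusted p = 0.000227, SE 0.13) in KO.

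Surf4 rose by 0.81 (adjusted p = 0.00575, SE 0.19) in WT and by 0.57 (adjusted p = 0.00863, SE 0.16) in KO, but the KO value did not pass without GMP KO 3 (adjusted p = 0.0543). Tmed2 rose by 0.98 in WT (adjusted p = 0.0031, SE 0.21), and in KO had a log2 fold change of -0.16 (adjusted p = 0.313, SE 0.14).

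**Figure D3:**
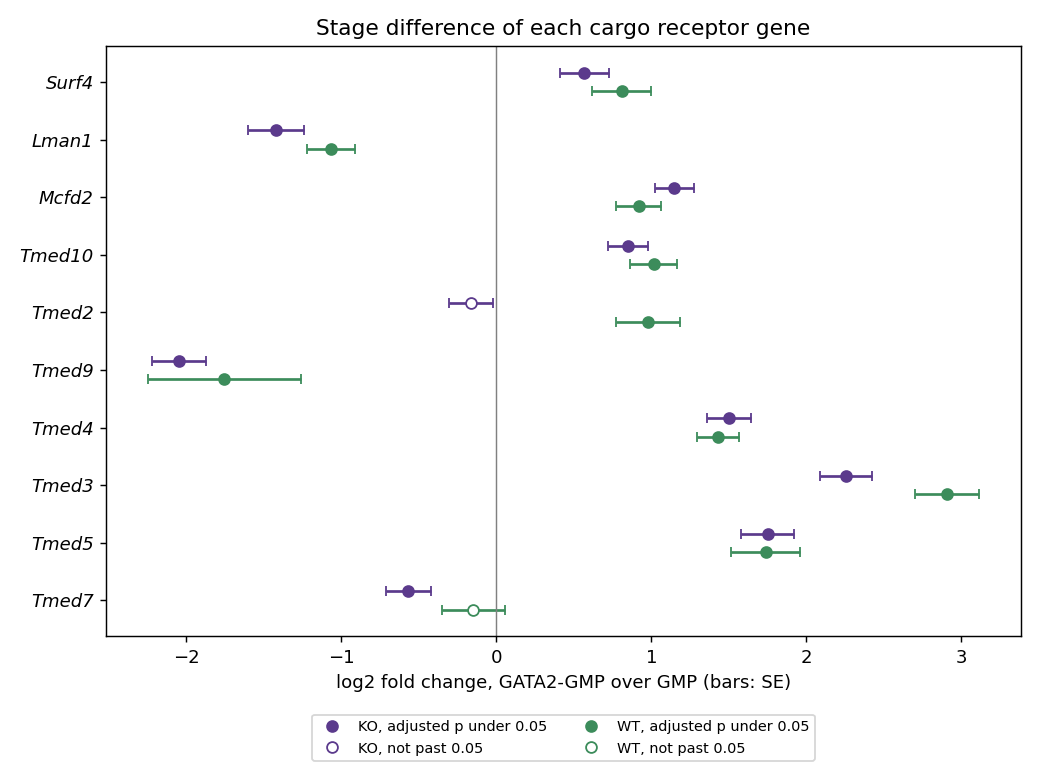
Log2 fold change of GATA2-GMP over GMP for each gene (x axis), with the SE as bars, in KO (purple) and WT (green) cells; filled points passed an adjusted p of 0.05. Tmed3, Tmed4, Tmed5, Mcfd2, Tmed10 and Surf4 lie above 0 and Lman1 and Tmed9 below 0 in both genotypes.

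Per kb of exon, these shifts changed the order of the p24 transcripts. In GMP WT the highest mean level was that of Tmed9, 185 ± 5.78 CPM per kb, followed by Tmed3 at 158 ± 9.24 CPM per kb (SD, n = 3 each). Below them came Surf4 (99.4 ± 7.25 CPM per kb), Tmed10, Mcfd2, Lman1, Tmed4, Tmed7, Tmed2 and Tmed5 (17.3 ± 0.476 CPM per kb). In GATA2-GMP WT Tmed3 stood first at 1176 ± 216 CPM per kb, followed by Surf4 (173 ± 35.6 CPM per kb), Tmed10, Mcfd2, Tmed4, Tmed5, Tmed9 (54.5 ± 44.01 CPM per kb), Tmed2, Tmed7 and Lman1 (15.3 ± 1.59 CPM per kb). In GATA2-GMP WT each gene from Mcfd2 to Tmed9 overlapped the next one down between libraries, as did Tmed7 and Lman1, whereas in GMP WT no neighbours overlapped. Tmed2 and Tmed10 keep an uncertain place in both orders and in the shares below, because of their copies. The places of Tmed5, Tmed7 and Lman1 are uncertain too, because they depend on the exon length used, as given below. Tmed3 took 71.8% ± 2.04 of the p24 reads per kb in GATA2-GMP KO and 76.4% ± 4.73 in GATA2-GMP WT, and 36.6% ± 2.22 in GMP KO and 32.5% ± 1.15 in GMP WT. Tmed9 took 3.30% ± 1.05 of them in GATA2-GMP KO and 3.82% ± 3.51 in GATA2-GMP WT, and 32.5% ± 1.05 in GMP KO and 38.2% ± 0.405 in GMP WT (SD, n = 3 each). Tmed9 libraries of GMP KO did not overlap those of GMP WT in this share.

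The ratio of the alpha members, Tmed9 to Tmed4 per kb, averaged 0.434 ± 0.139 in GATA2-GMP KO and 0.792 ± 0.671 in GATA2-GMP WT, and 4.96 ± 0.155 in GMP KO and 7.06 ± 0.289 in GMP WT. The libraries of GMP KO and GMP WT did not overlap, whereas those of GATA2-GMP did, and no test was made of these ratios. Lman1 per Mcfd2, per kb, averaged 0.110 ± 0.0207 in GATA2-GMP KO and 0.212 ± 0.0284 in GATA2-GMP WT, and 0.657 ± 0.0316 in GMP KO and 0.834 ± 0.0554 in GMP WT (SD, n = 3 each). The KO libraries lay below the WT libraries at each stage. Levels per kb rest on the GENCODE M1 exon union and may differ from the authors' own gene models. For some genes this union is much longer than the longest coding transcript. It is 8839 against 1436 bases for Tmed7, 7688 against 3800 for Tmed5 and 6411 against 3563 for Lman1. For Tmed9 it is 1506 against 1420 bases, and for Tmed3 1324 in both. The orders, shares and ratio levels per kb therefore depend on the length used.

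**Figure D4:**
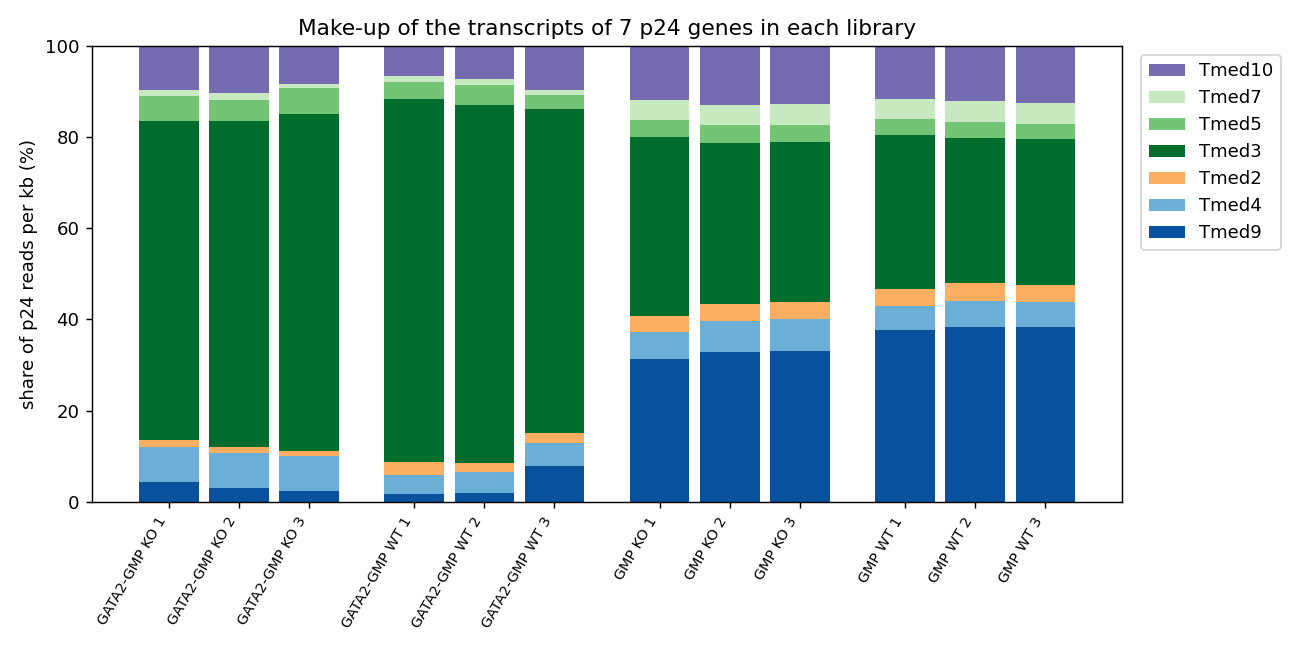
Share of the reads per kb of exon union of the 7 p24 genes taken by each gene (y axis, %), one bar per library, colored by gene. Tmed3 holds most of each GATA2-GMP bar, while Tmed9 and Tmed3 hold similar parts of each GMP bar, between 31.3% and 39.1% each.

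The spread among the 10 profiles was measured as the root mean square difference of centred log2(CPM + 1) values over the 12 libraries. Tmed10 and Mcfd2 were the nearest pair (0.196) and Tmed3 and Tmed9 the farthest (2.37). The median profile of the 10 was most like that of Tmed10 (0.139), Surf4 (0.191) and Mcfd2 (0.283), and least like that of Tmed9 (1.45). This profile does not mark out the 10 genes. Of 12793 other genes, 1372 lay nearer to it than Tmed2, 8475 than Tmed3, 8924 than Lman1 and 11207 than Tmed9. Only 1 lay nearer than Tmed10, and 18 lay nearer than Surf4. The profile was made from the 10 genes themselves, so that some of them must lie near it. Among the other genes that passed the filter, the 5 nearest to the median profile were Bfar (0.114), Chkb (0.147), Calr, an ER chaperone (0.147), Gpr108 (0.159) and Trappc6b, a subunit of a Golgi tether (0.163).

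Of the other genes of the same route, the coat and receptor lists had members that fell in GMP KO. Of all genes tested there, 2.52% fell and 0.658% rose, the shares beside which these list counts stand, here and below. Of 15 COPI coat and regulator genes tested, 9 fell and none rose, with a median log2 fold change of -0.28. The largest falls were Arfgap3 by 0.69 (adjusted p = 0.00798, SE 0.12), Cope by 0.60 (adjusted p = 0.000158, SE 0.065), Arf4 by 0.44 and Arcn1 by 0.40. Of 15 COPII genes, 3 fell, at a median of -0.20: Sec23a by 0.48, Sec23b by 0.45 and Sec24c by 0.36. Sec24d, a cargo adaptor of the COPII coat, averaged 4.71 ± 0.643 CPM in GMP KO and 42.5 ± 20.2 CPM in GMP WT, at a log2 fold change of -3.20 that did not pass (adjusted p = 0.0512).

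Of 17 other cargo and retrieval receptors tested, 6 fell, at a median of -0.16, led by Ergic3 by 0.70 (adjusted p = 0.000151, SE 0.075), Yif1a by 0.41, Lman2, a lectin related to Lman1, by 0.38 and Yipf5 by 0.37. Of 20 tethers and SNAREs, 6 fell, at a median of -0.075, among them Bet1 by 0.86 (adjusted p = 0.00017, SE 0.092), Uso1 by 0.61, Gorasp2 by 0.33 and Stx5a by 0.29. In the list of other p24 and GOLD domain genes, Tmed1 and Tmed8 had log2 fold changes of 0.19 (adjusted p = 0.312) and -0.037 (adjusted p = 0.873).

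Of the possible cargo, 14 genes for GPI-anchored proteins of blood cells had a median of -0.045 and 1 call, Cd177, which rose by 1.38 on the log2 scale (adjusted p = 0.00219, SE 0.21). Of 5 genes for reported LMAN1-MCFD2 cargo, Lgals3bp fell by 0.73 (adjusted p = 0.00518, SE 0.11), with a median of 0.13. None of 3 genes of GPI anchor remodelling was called. With the replicate block, an alternative chosen for these lists after their counts were seen, 9 COPI, 8 COPII, 7 other receptor and 7 tether or SNARE genes fell, and Sec24d was among them (adjusted p = 0.0171). The block also called more genes in all than the main fit, as given above. In the same fit 2 genes of GPI-anchored proteins rose and 1 fell, and 2 genes of LMAN1-MCFD2 cargo rose and 1 fell. DESeq2 also called Sec24d (adjusted p = 4.41e-12), 2 GPI-anchored protein genes higher and 1 lower, and 1 cargo gene higher and 1 lower. Without GMP KO 3, when 209 genes were called in all against 381 with it, the counts were 5 COPI, 3 COPII, 3 other receptor and 2 tether or SNARE genes. Leaving out any 1 of the other 5 GMP libraries left 6 to 8 COPI genes and 2 to 4 tether or SNARE genes.

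In GATA2-GMP KO, where 0.274% of all genes fell, Sec24d was the only gene of these lists to be called by edgeR. Sec24d averaged 8.22 ± 3.05 CPM in GATA2-GMP KO and 54.8 ± 20.4 CPM in GATA2-GMP WT (SD, n = 3 each) and fell by 2.73 on the log2 scale (adjusted p = 0.0271, SE 0.37). Without GATA2-GMP WT 3, edgeR called 525 genes in all, against 44 with that library, and 6 of them were in the lists. These were Sec24d of 15 COPII genes and 3 of 17 other receptors, all lower, Ergic3 among them (adjusted p = 0.0181). Of 20 tethers and SNAREs, 1 was lower and 1 higher. The call of Sec24d was lost without GATA2-GMP WT 1 (adjusted p = 0.121), without KO 1 (0.195) and without KO 3 (0.0710). DESeq2, which called 504 genes in all, called 3 other receptors, Ergic3 among them (adjusted p = 0.00258). It also called 2 tethers or SNAREs, 1 GPI-anchored protein gene and Sec24d, and all of these were lower. The median log2 fold change was -0.28 in the COPII list, -0.29 in the COPI list, -0.34 in the other receptors, where Ergic3 stood at -1.01 (adjusted p = 0.0895), -0.38 in the tethers and SNAREs and 0.52 in the 4 genes of GPI anchor remodelling.

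**Figure D5:**
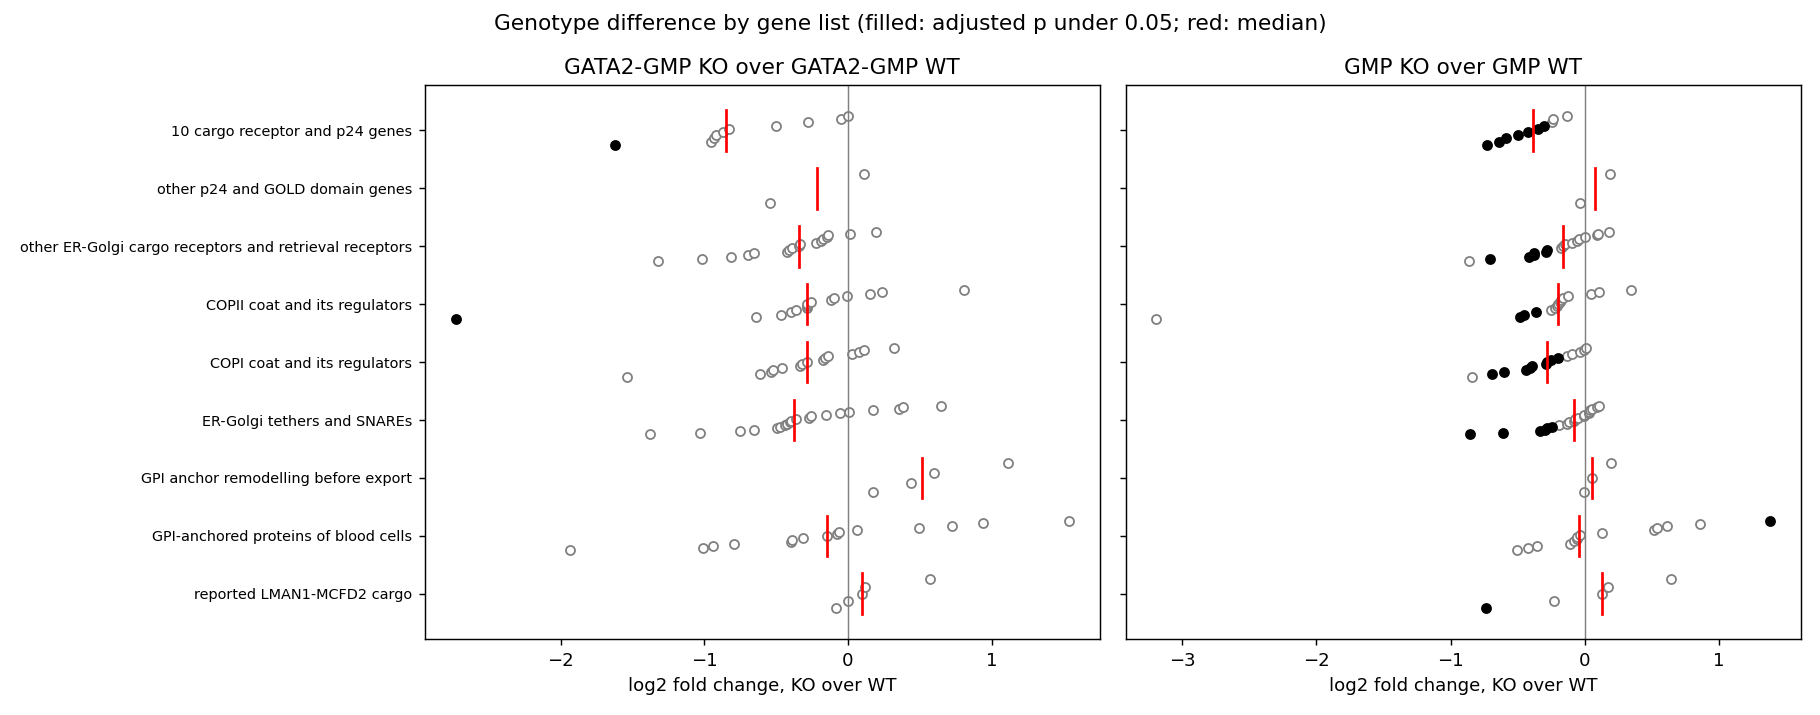
Log2 fold change of KO over WT (x axis) of each gene tested, by list, in GATA2-GMP (left) and GMP (right); filled points passed an adjusted p of 0.05 and the red bar is the list's median. In GMP the COPI list has 9 filled points, all below 0, and the cargo receptor and p24 genes have 7; the lowest point of either panel, Sec24d at -3.20 in GMP, is open.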

How the data were processed

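Reads per gene symbol were deposited by the authors as raw counts, 1 file per library, whole numbers with no normalization. The submitters' processing notes name DESeq, HTSeq, SAMtools 0.1.14, STAR 2.3.0 and build mm9, without roles; strand setting and annotation are not given in the sources used here. Each file held 23366 genes and 5 counter rows, which were left out and made up 55.8 to 66.5% of records. Of 27 gene names turned into dates in the GMP files, 23 were restored and 4 genes left out.

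Tests used R 4.3.3 and the edgeR 4.0.16 quasi-likelihood test (filterByExpr with minimum counts of 10 and 15 in total, TMM, estimateDisp, glmQLFit with robust=TRUE, glmQLFTest), each comparison on its own 6 libraries and the interaction on 12. Adjustment was Benjamini-Hochberg across every tested gene, threshold 0.05. The SE is the fold change over the square root of F. CPM were TMM-scaled over all 12 libraries, and per kb values use the union exon length of GENCODE M1 (mm9). The procedure was tested on simulated data with the same spread set for every gene and comparison. That setting did not follow the different spreads of GMP and GATA2-GMP libraries.

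GMP libraries of the same replicate number deviated together (correlations 0.362, 0.346 and 0.240 across genes), a hint from the data, since the labels do not say what a number marks. Alternatives were DESeq2 1.42.0, RLE and upper quartile scaling, no filter, a replicate block and each library left out. The 10 genes, the lists and the markers were chosen with earlier results of these data known. Named genes were the 10, Xbp1, up to 4 called genes with the largest change per list, and the 5 nearest profiles; Sec24d in GMP, Tmed1, Tmed8 and Ergic3 in GATA2-GMP were named after their values were seen.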

Additional observations from a re-analysis of the deposited data

How the results depend on the processing

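Of 671 alternative values for single genes, 625 kept direction and side of the threshold, 20 came to pass it, 8 came to miss it and 18 turned sign. In GMP the block called 964 genes. In GATA2-GMP, KO and WT libraries of the same number did not deviate together (correlations -0.205, -0.414 and -0.588). The highest correlations with a different number were 0.392, 0.492 and 0.492, and neither the main test nor the block takes these up. Between the stages the correlations for the same number were 0.0329, 0.0278 and 0.0766 in WT and 0.0331, -0.0519 and -0.0417 in KO. In GATA2-GMP the block called 0 members and 3 genes. There DESeq2 called 4 members and 504 genes, and no filter 294 genes. For the difference between stages, RLE scaling called 17 genes, no filter 40, DESeq2 738 genes and 1 member, and the block 0 genes. Leaving out 1 library gave 6 to 9 members and 209 to 398 genes in GMP, 0 to 3 members and 0 to 525 genes in GATA2-GMP, 9 to 9 members and 7621 to 9826 genes between stages in WT, 8 to 9 members and 9026 to 10669 genes in KO, and 0 to 2 members and 0 to 1179 genes for the difference. Sign turned for Mcfd2 in GATA2-GMP (-0.017 with no filter, -0.054 to 0.080 with 1 library left out), for Tmed4 there (-0.16 to 0.018) and for Tmed7 between stages in WT (-0.31 to 0.089). In the difference between stages it turned for Tmed5 (-0.019 with RLE scaling, -0.012 with no filter, -0.020 in DESeq2, -0.19 to 0.16 with 1 library left out), Tmed4 (-0.041 to 0.13), Tmed9 (-0.61 to 0.61) and Xbp1 (-0.44 to 0.029). Beyond library effects the cause was not tested. GMP KO 3 had the fewest reads, 8219366.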

Other observations

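Between the stages, genes around these receptors shifted in both directions. In GATA2-GMP WT against GMP WT, 11 of 18 other cargo and retrieval receptors tested rose and 5 fell, where 34.1% and 36.4% of all genes did. The KDEL receptor gene Kdelr3 averaged 9.56 ± 3.06 CPM in GATA2-GMP WT and 0.399 ± 0.1004 CPM in GMP WT (SD, n = 3 each) and rose by 4.57 on the log2 scale (adjusted p = 2.96e-05, SE 0.38), while Kdelr1 fell by 1.24 (adjusted p = 0.000394, SE 0.18). Yif1a rose by 3.15 (adjusted p = 1.11e-05). Of 15 COPII genes, 8 rose and 3 fell, and Sar1b, a GTPase that starts the coat, rose by 2.44 (adjusted p = 0.000132, SE 0.28) while Sec31b fell by 2.497 (adjusted p = 0.0046, SE 0.57). Of 15 genes tested for GPI-anchored proteins of blood cells, 12 rose and 1 fell. Kit, transduction, culture and stage cannot be told apart here, and these genes were named after their values were seen.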
